A study of Mus musculus with 11 samples.

Results

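P2ry12, Cd72 and every gene whose symbol starts with Ms4a were examined in sorted mouse striatal cells in which the transcription factor NF-Y had been targeted for knockdown. These are 5 of the 1767 genes in the deposited table: the purinergic receptor gene P2ry12, the B-cell and macrophage coreceptor gene Cd72, and the membrane-spanning 4-domain genes Ms4a4c, Ms4a6c and Ms4a7. The genes were chosen by symbol and with their values known, and the whole table consists of genes that the authors' own test had selected for a difference between the same groups. The differences between groups are therefore given as descriptions, without p-values for these genes. Statements below that a gene was called at a threshold are descriptions too.

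Striata of wild-type male B6 mice (strain C57BL/6) were injected in both hemispheres at 6 weeks of age with AAV1/2 vectors, and the tissue was taken 3 weeks later. The control vector expressed EmGFP with a non-targeting miR RNAi (NT2, 6 samples), and the knockdown vector expressed EmGFP with miR RNAi against NF-YA and NF-YC (YA-8/YC-2, here NF-YA/YC knockdown, 5 samples). Both vectors used the CAG promoter, which is active in most cell types and does not restrict expression to neurons. After papain dissociation, EmGFP-positive and propidium iodide-negative cells were sorted, so each value is a bulk value over all the cells that passed the gate. Fewer cells of a type and less RNA per cell cannot be told apart in such samples. In the paper, qRT-PCR of the sorted cells showed less NF-YC, while the reduction of NF-YA was not significant. Most EmGFP cells on sections carried the neuronal marker NeuN. The paper names infected or carried-over glial cells as possible sources of glial genes. It removed non-neuronal genes from its own list. Samples are named by group and by the number in their label. The labels do not state that each sample is 1 mouse, although the design text gives as many mice as samples, so the spread between samples may hold technical variation.

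Microglia are the resident macrophages of the brain. In healthy tissue they carry P2ry12, a receptor for extracellular ADP and ATP that directs their processes towards sites of injury and whose expression is lowered when the cells are activated. Cd72 encodes an inhibitory lectin-type receptor of B cells that macrophages also express, and the Ms4a family encodes 4-pass membrane proteins related to the B-cell antigen CD20, several of which are found in macrophages. Ms4a7 is used as a marker of macrophages at the borders of the brain.

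P2ry12 lies on the minus strand of chromosome 3 (chr3:59020193-59066753, build mm9) and Cd72 on the minus strand of chromosome 4 (chr4:43460596-43467498). The Ms4a genes lie in a cluster on chromosome 19, Ms4a7 at chr19:11395898-11410606 on the minus strand, Ms4a4c at chr19:11482151-11501736 and Ms4a6c at chr19:11543858-11556686, both on the plus strand. Of 19 Ms4a genes that GENCODE M21 places in the cluster, 3 were in the table. The other Ms4a genes were not analysed here.

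The 250 bases upstream of the annotated start are shown for 3 of the genes, P2ry12 because it differs in direction from the others, and Cd72 and Ms4a4c because these had the largest differences. They were taken from RefSeq (GRCm38.p6), read 5′ to 3′ on the strand of the gene, and capitals mark GAGGAA or its reverse complement TTCCTC, a core of sites bound by the myeloid factor PU.1. The windows are chr3:59262986-59263235 for P2ry12, chr4:43454627-43454876 for Cd72 and chr19:11407411-11407660 for Ms4a4c.
P2ry12: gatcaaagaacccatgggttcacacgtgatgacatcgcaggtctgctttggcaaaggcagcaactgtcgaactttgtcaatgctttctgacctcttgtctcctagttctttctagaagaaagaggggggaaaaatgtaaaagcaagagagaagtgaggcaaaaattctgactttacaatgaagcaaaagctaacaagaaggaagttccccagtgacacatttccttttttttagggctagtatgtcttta
Cd72: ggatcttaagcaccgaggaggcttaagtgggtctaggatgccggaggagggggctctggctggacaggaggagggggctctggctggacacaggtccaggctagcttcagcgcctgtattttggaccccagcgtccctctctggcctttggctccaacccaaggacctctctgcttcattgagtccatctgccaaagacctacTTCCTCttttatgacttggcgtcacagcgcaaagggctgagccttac
Ms4a4c: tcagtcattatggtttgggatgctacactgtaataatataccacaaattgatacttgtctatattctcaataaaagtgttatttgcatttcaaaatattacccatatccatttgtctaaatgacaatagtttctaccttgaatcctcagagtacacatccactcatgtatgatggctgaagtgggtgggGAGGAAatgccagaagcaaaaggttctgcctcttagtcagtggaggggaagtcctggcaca
GAGGAA was found on either strand in 2 of the 6 promoter windows of the 5 genes (Ms4a7 has 2 windows), and in 23.3% of 32851 RefSeq windows of the same length. CCAAT, the core of the motif bound by NF-Y, was found on neither strand in the 6 windows, and in 33.8% of all windows. A pair of GAAA separated by 2 bases of any kind, a core of interferon-stimulated response elements, was found on either strand in 0 of the 6 windows and in 2.98% of all windows. The 3 motifs were chosen after the values of the genes were seen, and a match or its absence describes only these letters in these windows.

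One control sample, NT2 replicate 3, stood apart. Its log2 profile over the listed genes, with each gene centred on its mean over all samples, correlated with those of the other control samples with a median r of 0.03, against 0.31 to 0.46 for the other 5 controls. With the knockdown samples its median r was -0.22, against -0.60 to -0.46 for the other 5 controls. It had the fewest counts summed over the listed genes, 1581757, in a range up to 3141324 for the controls and from 1954949 to 3010153 for the knockdown samples. Such sums are over the listed genes alone, and the depth of the libraries is not given by the table. The normalized count of Nfyc, a target of the knockdown, was 1206 in this sample, the highest of all. Nfyc was 921.3 ± 173.1 (SD, n = 6) in the controls and 805.6 ± 145.7 (SD, n = 5) in the knockdown samples. Its log2 fold change was -0.19 (standard error 0.15). The groups overlapped, with 602.8 to 975.5 in the knockdown samples. What set NT2 replicate 3 apart was not tested. Results are given with and without NT2 replicate 3.

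P2ry12 was abundant, and its fitted level in the knockdown samples was 0.782 times that of the controls, a difference that was not called at an adjusted p-value under 0.05. The fitted fold was 2.73 for Cd72, 3.55 for Ms4a4c and 2.20 for Ms4a7, which were called, and 1.78 for Ms4a6c, which was not. In this fit 60.3% of the listed genes were called, since the table was chosen by the same contrast. Without NT2 replicate 3 the folds were 0.741 for P2ry12, 4.59 for Cd72, 4.59 for Ms4a4c, 2.97 for Ms4a7 and 2.64 for Ms4a6c. All were called in that fit, where 63.4% of the listed genes were called. Values are normalized counts, the estimated read counts of the authors divided by edgeR's TMM factor of the sample. P2ry12 ranked 13th of the 1767 listed genes by mean count, Cd72 201st, Ms4a6c 452nd, Ms4a4c 475th and Ms4a7 526th.

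The homeostatic gene P2ry12 had normalized counts of 13513, 25660, 17259, 13336, 18310 and 24214 in NT2 replicates 3, 5, 7, 9, 21 and 23. In knockdown replicates 4, 6, 8, 10 and 22 it had 15278, 15245, 16015, 12841 and 13820. The controls were spread widely, with a coefficient of variation of 27.9% against 8.76% in the knockdown samples. The groups overlapped: NT2 replicates 3 and 9 were as low as the knockdown samples, and the knockdown samples lay below the other 4 controls. The knockdown samples had a mean of 14640 ± 1282 (SD, n = 5) and the controls one of 18715 ± 5230 (SD, n = 6), and the fitted log2 fold change was -0.35 (standard error 0.18). It was -0.49 (standard error 0.19) with the scaling factors of the authors, which shifted the median of all listed genes from -0.13 to -0.27, and -0.43 (standard error 0.17) without NT2 replicate 3.

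Cd72 had normalized counts of 4850, 819, 861, 903, 1029 and 1131 in NT2 replicates 3, 5, 7, 9, 21 and 23. Its counts in knockdown replicates 4, 6, 8, 10 and 22 were 4376, 5087, 4727, 2083 and 5516. NT2 replicate 3 was at the level of the knockdown samples, and the other 5 controls lay within a narrow range below all of them. The log2 fold change was 1.45 (standard error 0.47), and 2.20 (standard error 0.22) without NT2 replicate 3. Among the knockdown samples, replicate 10 was the lowest.

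Ms4a4c showed the largest difference of the 5 genes over all samples. Its normalized counts were 1247, 241, 191, 369, 763 and 674 in NT2 replicates 3, 5, 7, 9, 21 and 23, and 2311, 2687, 2063, 938 and 2283 in knockdown replicates 4, 6, 8, 10 and 22. Of the 5 knockdown samples, 4 lay above every control, and knockdown replicate 10 lay below NT2 replicate 3 only. The controls numbered 21 and 23 were higher than those numbered 5, 7 and 9. The log2 fold change was 1.83 (standard error 0.44), and 2.20 (standard error 0.39) without NT2 replicate 3.

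Ms4a6c had the smallest difference of the 4 genes that were higher in the knockdown samples, and NT2 replicate 3 had its highest count. Normalized counts were 2748, 560, 653, 580, 817 and 870 in NT2 replicates 3, 5, 7, 9, 21 and 23. They were 2351, 1993, 1830, 1298 and 1731 in knockdown replicates 4, 6, 8, 10 and 22, each above the other 5 controls. The log2 fold change was 0.83 (standard error 0.38), and 1.40 (standard error 0.17) without NT2 replicate 3.

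For Ms4a7, the normalized counts were 1718, 349, 745, 453, 612 and 588 in NT2 replicates 3, 5, 7, 9, 21 and 23, and 2040, 1563, 2058, 1214 and 1297 in knockdown replicates 4, 6, 8, 10 and 22. NT2 replicate 3 lay inside the knockdown range, and the remaining controls lay below it. The log2 fold change was 1.14 (standard error 0.35), and 1.57 (standard error 0.22) without NT2 replicate 3.

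**Figure D1:**
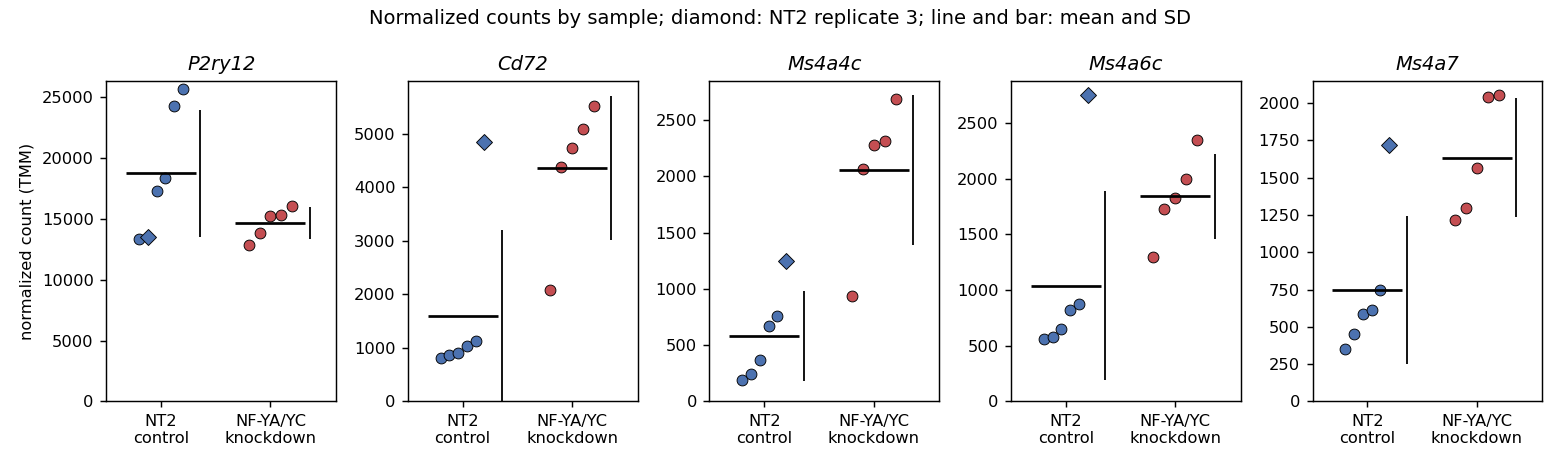
Normalized counts (linear axes from 0, 1 panel per gene) of the 6 NT2 control samples (blue) and the 5 NF-YA/YC knockdown samples (red), with the mean (line) and SD (bar). NT2 replicate 3 (diamond) lies at 4850 for Cd72 and 2748 for Ms4a6c, far from the other controls, and at 13513 for P2ry12, near the low end of the controls.

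With all samples, 0 of the 5 genes had groups that did not overlap, in a table where 11.4% of the genes were higher and 2.43% lower in the knockdown samples without overlap. The same was found with the authors' scaling, where 6.90% of the genes were higher and 6.11% lower without overlap. When NT2 replicate 3 was left out, all 4 of the higher genes had groups that did not overlap, where this was so for 22.9% of the listed genes in this direction and for 7.75% in the other, and P2ry12 still overlapped. At an adjusted p-value under 0.05 (edgeR's quasi-likelihood test over the 1767 genes), 3 of the 5 were called, namely Cd72, Ms4a4c and Ms4a7, in a table where 60.3% of the genes were called, 39.0% higher and 21.3% lower. With the authors' scaling 4 were called, P2ry12 in addition, where 79.5% of the genes were called, 32.2% higher and 47.3% lower. After NT2 replicate 3 was left out all 5 were called, where 63.4% of the genes were called, 38.5% higher and the other 441 genes lower. Since the table was chosen by this contrast, nothing is read from these counts.

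**Figure D2:**
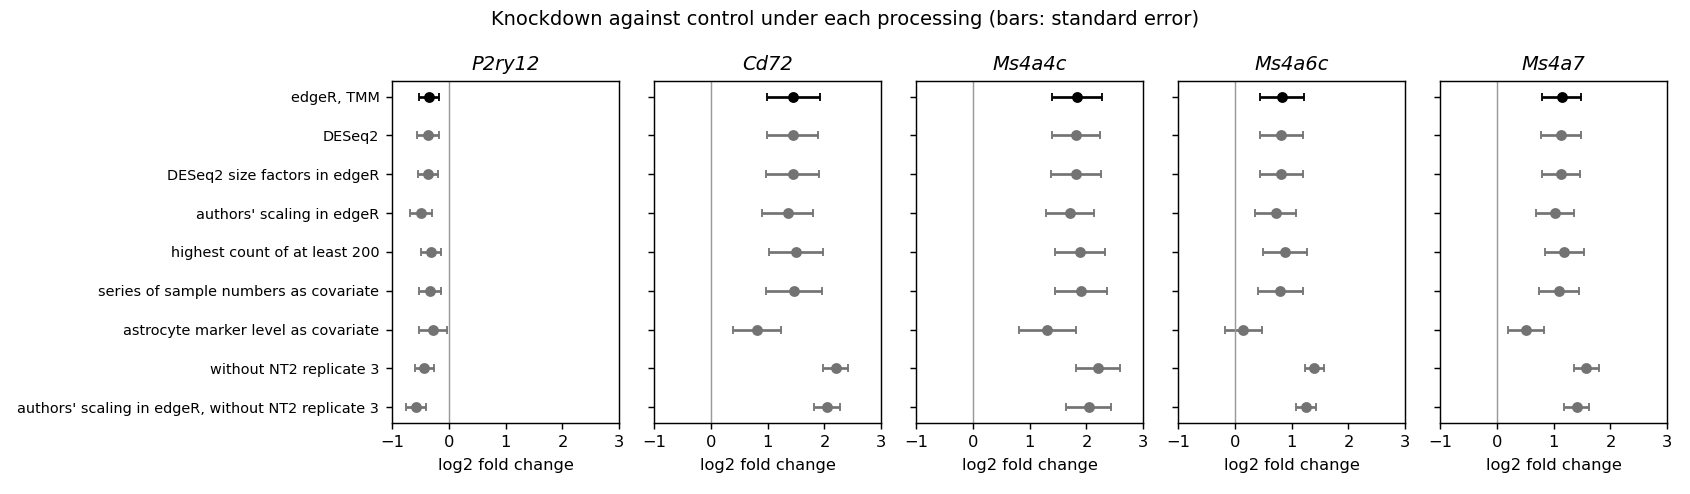
Log2 fold change of knockdown against control (x axis) for each gene under the main fit (black) and 8 other fits (grey), with bars of 1 standard error. The signs are the same in all 9 fits, P2ry12 from -0.58 to -0.28, and Ms4a6c falls to 0.15 with the astrocyte marker level as a covariate.

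The labels number the samples from 3 to 10 and from 21 to 23, without saying what the numbers stand for. Among the samples numbered 3 to 10, with 4 samples a group, the mean log2 count differed by -0.18 for P2ry12, 1.54 for Cd72, 2.28 for Ms4a4c, 1.06 for Ms4a6c and 1.32 for Ms4a7. Among those numbered 21 to 23, with 2 controls and 1 knockdown sample, it differed by -0.61, 2.35, 1.67, 1.04 and 1.11 in the same order. Each gene had the same direction in both series.

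P2ry12 was next compared with the other genes sample by sample, as the ratio of their counts, which needs no scaling between samples. Cd72 counts were 3.19% to 35.9% of the P2ry12 counts in the controls, with a mean of 10.2% ± 12.7 (SD, n = 6), and 16.2% to 39.9% in the knockdown samples, with a mean of 29.5% ± 8.67 (SD, n = 5). The controls other than NT2 replicate 3 had 5.05% ± 1.31 (SD, n = 5). NT2 replicate 3 alone gave 35.9%, above 4 of the 5 knockdown samples.

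For the Ms4a genes the same ratio was 3.50% ± 3.05 (SD, n = 6) in the controls and 13.9% ± 4.09 (SD, n = 5) in the knockdown samples for Ms4a4c. It was 6.45% ± 6.85 and 12.5% ± 1.97 for Ms4a6c, and 4.59% ± 4.10 and 11.1% ± 1.90 for Ms4a7, with the same numbers of samples. On the log2 scale the mean ratio to P2ry12 was higher in the knockdown samples by 2.05 for Cd72, 2.35 for Ms4a4c, 1.38 for Ms4a6c and 1.61 for Ms4a7. With all samples the ratios of the groups overlapped for each of the 4 genes. When NT2 replicate 3 was left out the differences were 2.53, 2.72, 1.80 and 1.98, and the groups overlapped for none of them. The share of listed genes whose ratio to P2ry12 separates in the same way was not computed. The genes were also chosen with their values known, so nothing is read from this separation.

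**Figure D3:**
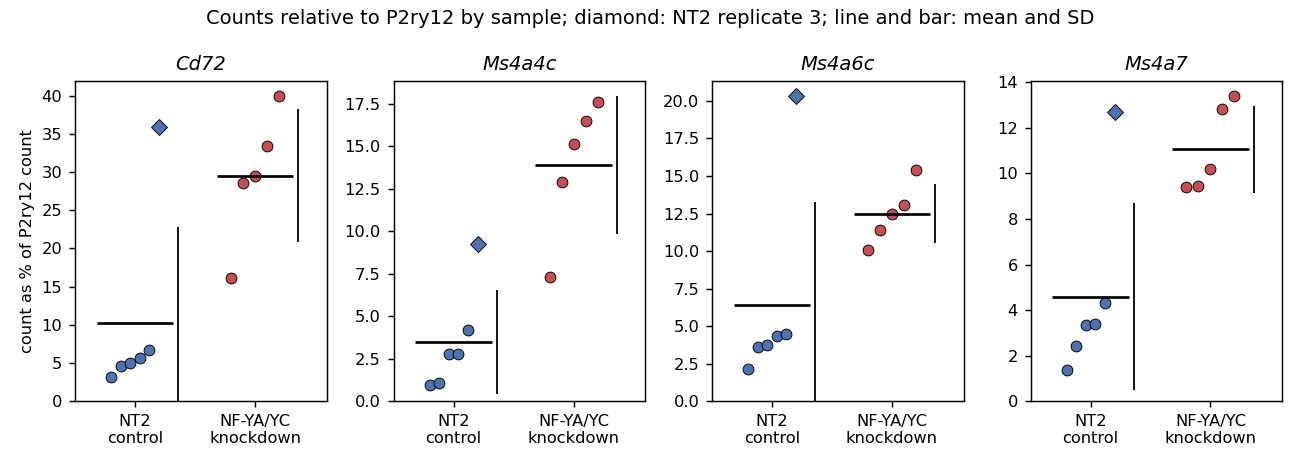
Counts of 4 genes as a percentage of the P2ry12 counts of the same sample (y axis, from 0) in the NT2 control (blue) and NF-YA/YC knockdown (red) samples, with the mean (line) and SD (bar, not drawn below 0). NT2 replicate 3 (diamond) lies at 35.9% for Cd72 and 20.3% for Ms4a6c, among or above the knockdown samples, which reach 39.9% and 15.4%.

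Per kilobase of exon, P2ry12 had the highest level of the 5 genes in both groups, 7351 ± 2054 normalized counts per kilobase (SD, n = 6) in the controls and 5750 ± 503 (SD, n = 5) in the knockdown samples. In the controls the other levels per kilobase were 506 ± 413 for Ms4a6c, 467 ± 467 for Cd72, 332 ± 228 for Ms4a4c and 167 ± 111 for Ms4a7. With all samples, neighbours in this order differed by less than their spread. When NT2 replicate 3 was left out, the control levels per kilobase were 339.5 ± 68.5 for Ms4a6c, 277.2 ± 37.6 for Cd72, 255.7 ± 147 for Ms4a4c and 123.4 ± 34.2 for Ms4a7 (SD, n = 5), and Ms4a7 lay below Ms4a6c and Cd72 by more than their spread. In the knockdown samples they were 1274 ± 392 for Cd72, 1174 ± 379 for Ms4a4c, 898 ± 187 for Ms4a6c and 367 ± 90 for Ms4a7. The first 3 were within their spread of each other, and Ms4a7 was the lowest of the 5 in the mean of either group. Exon lengths came from GENCODE M21, and the gene models that the authors counted on may differ.

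Differences within the groups were used to ask whether samples with more of the other genes had less P2ry12. The table was chosen by a test between groups, which also depends on the spread within them. Relations between genes within the groups did not enter that test, although the genes were chosen with their values known. Log2 normalized counts were centred on the group means. Over the 11 samples, Pearson's r of P2ry12 was -0.33 with Cd72 (two-sided exact permutation test within groups, p = 0.6), -0.15 with Ms4a4c (exact permutation p = 0.7), -0.32 with Ms4a6c (exact permutation p = 0.59) and -0.41 with Ms4a7 (exact permutation p = 0.39). The adjusted p-value over these 4 relations was 0.7 for each. Spearman's rho was -0.08, 0.05, 0.06 and 0.01 in the same order (exact permutation p = 0.78, 0.89, 0.91 and 1, each with an adjusted p of 1). Without NT2 replicates 5 and 9, which lie farthest from the median of P2ry12, r was -0.43, -0.02, -0.47 and -0.51. Without NT2 replicate 3, r was 0.25, 0.20, 0.35 and -0.00, so that the sign of 3 of the 4 relations rested on this sample. Among the 8 samples numbered 3 to 10, r was -0.32, -0.37, -0.38 and -0.45. No relation between P2ry12 and the other genes within the groups was detectable with 11 samples.

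The other 4 genes varied together within the groups, which is given as a description since they were chosen as a set. Pearson's r over the 11 samples, again centred on group means, was 0.94 between Cd72 and Ms4a6c, 0.90 between Ms4a6c and Ms4a7, 0.82 between Cd72 and Ms4a7, 0.81 between Cd72 and Ms4a4c, 0.81 between Ms4a4c and Ms4a6c, and 0.62 between Ms4a4c and Ms4a7. Without NT2 replicate 3 these were 0.71, 0.68, 0.37, 0.75, 0.80 and 0.30. The pairs that changed least without it were those of Ms4a4c with Cd72 and Ms4a6c.

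The listed genes included 15 of 18 interferon response genes on a list of known interferon targets, and all 15 had higher fitted values in the knockdown samples, 13 of them called, in a table where 39.0% of the genes were called higher. These genes, like all in the table, had been selected for the same contrast. The 4 with the most counts were Ifit2, Ifit3, Cxcl10 and Irf7, with log2 fold changes of 1.12 (standard error 0.46, not called), 1.24 (standard error 0.40), 1.06 (standard error 0.39) and 1.38 (standard error 0.43). Ifit2 and Ifit3 encode antiviral proteins that are induced by interferon, Cxcl10 a chemokine and Irf7 a transcription factor of the response. The summed normalized counts of all 15 genes were 94495 in NT2 replicate 3 and at most 56687 in the other 5 controls, and 65346 to 123562 in the knockdown samples.

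An interferon response score, the mean of the 15 log2 counts after centring each gene, was then set against the 5 genes within the groups, a family of 5 relations that was added after the data were seen. Ms4a4c followed the score closely, with r = 0.98 (two-sided exact permutation test within groups, n = 11, p = 0.00028, adjusted p = 0.0013) and rho = 0.95 (exact permutation p = 0.0014, adjusted p = 0.0034). Cd72 gave r = 0.79 (exact permutation p = 0.00051, adjusted p = 0.0013) and rho = 0.72 (exact permutation p = 0.00064, adjusted p = 0.0032), and Ms4a6c gave r = 0.80 (exact permutation p = 0.0045, adjusted p = 0.0074) and rho = 0.68 (exact permutation p = 0.015, adjusted p = 0.025). For Ms4a7, r was 0.58 (exact permutation p = 0.14, adjusted p = 0.18) and rho 0.39 (exact permutation p = 0.28, adjusted p = 0.35). For P2ry12, r was -0.15 (exact permutation p = 0.72, adjusted p = 0.72) and rho -0.05 (exact permutation p = 0.91, adjusted p = 0.91).

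Without NT2 replicates 3 and 7, which lie farthest from the median of the score, r was 0.96 for Ms4a4c, 0.77 for Cd72, 0.89 for Ms4a6c, 0.74 for Ms4a7 and 0.12 for P2ry12. Among the 8 samples numbered 3 to 10 it was 0.98, 0.93, 0.90, 0.72 and -0.42 in the same order. Without NT2 replicate 3 alone it was 0.96, 0.66, 0.73, 0.17 and 0.23. Ms4a4c thus kept a value of at least 0.96 in each of these subsets. The adjusted p of Ms4a6c was 0.092 without NT2 replicate 5 (r = 0.77, exact permutation test), and that of Ms4a7 was 0.01 without NT2 replicate 7 (r = 0.84, exact permutation test). The difference between the r values of the genes was not tested. How many of the other listed genes follow the score within the groups was not computed. The relations are therefore not read as particular to these genes. Tesk1, a protein kinase gene, had an r of 0.94 with Ms4a6c and 0.93 with Cd72 within the groups.

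**Figure D4:**
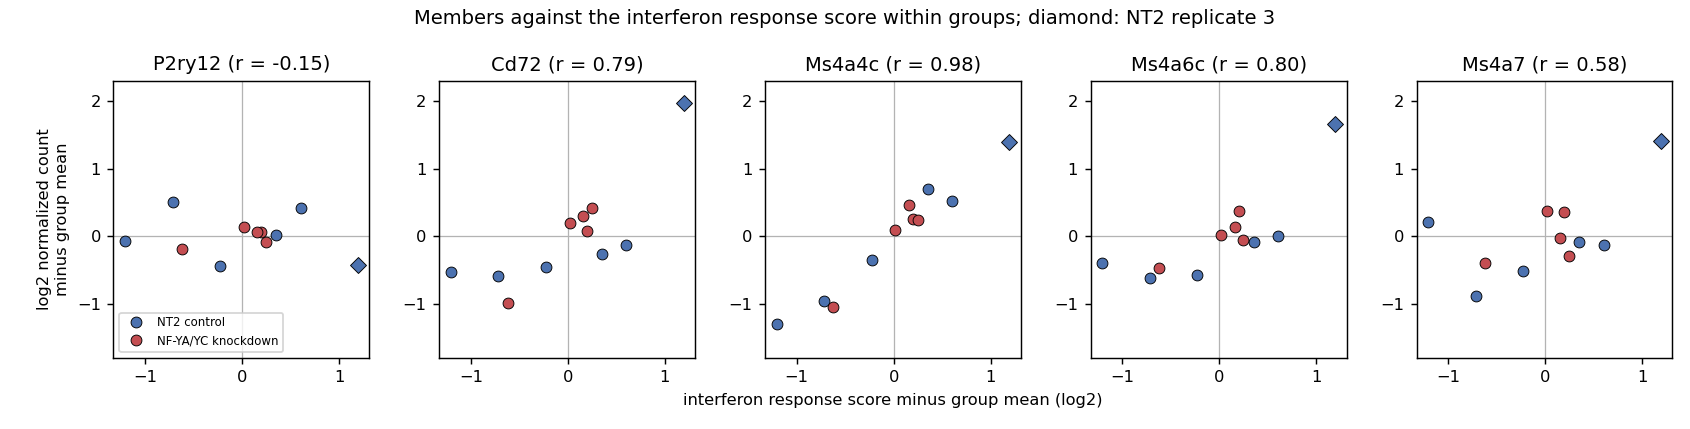
Log2 normalized count of each gene (y axis) against the interferon response score (x axis, log2), both minus the group mean, for NT2 control (blue) and NF-YA/YC knockdown (red) samples. The points of Ms4a4c lie along a line (r = 0.98), those of P2ry12 do not (r = -0.15), and NT2 replicate 3 (diamond) has the highest score of its group.

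Other genes of microglia and macrophages were counted from marker lists. Of 30 homeostatic microglia genes, 2 were in the table, with fitted values of opposite sign: P2ry12 had -0.35 (not called), and Olfml3, which encodes a secreted olfactomedin-like protein, was higher by 0.57 on the log2 scale (standard error 0.19, called). Of 36 genes of activated microglia, 4 were in the table, and all 4 were higher and called, beside 39.0% of all listed genes that were called higher. These were the tetraspanin genes Cd9 (log2 fold change 0.55, standard error 0.15) and Cd63 (0.60, standard error 0.22), the lipid-binding protein gene Fabp5 (0.87, standard error 0.20) and the cholesterol 25-hydroxylase gene Ch25h (1.07, standard error 0.17). Their summed counts were 68343 in NT2 replicate 3, at most 47330 in the other controls and 59862 to 80111 in the knockdown samples. Cd9, Cd63 and Fabp5 are also expressed by other glial cells.

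Of 29 Fc and immunoglobulin-like receptor genes, 3 were in the table. Siglec1, a macrophage lectin induced by interferon, was higher by 1.41 (standard error 0.29, called) and Pilra, an inhibitory receptor gene of myeloid cells, by 0.87 (standard error 0.29, called), and Clec4a2, a C-type lectin gene, differed by -0.27 (standard error 0.17, not called). Of 20 genes of border macrophages and monocytes only the monocyte gene Ly6c2 was in the table, with a log2 fold change of 1.33 (standard error 0.86, not called). Its count was 3000 in NT2 replicate 3, at most 603 in the other controls and 762 to 2617 in the knockdown samples. None of 22 lymphocyte genes and none of 14 striatal neuron genes were in the table, so that B cells, which also carry Cd72, and neurons could not be checked here. The median log2 fold change was 0.74 for the activated microglia genes, 0.87 for the receptor genes and 1.13 for the interferon genes, beside -0.13 for all listed genes.

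Markers of other cell types were lower in the knockdown samples, in which the 4 genes were higher. Of 11 astrocyte genes 5 were in the table, all 5 lower and called, beside 21.3% of all listed genes called lower (47.3% with the authors' scaling), among them the glutamate transporter gene Slc1a3 (log2 fold change -0.88, standard error 0.22), the aldolase gene Aldoc (-1.14, standard error 0.37), the connexin gene Gja1 (-1.03, standard error 0.36) and the growth factor receptor gene Fgfr3 (-1.37, standard error 0.46). The summed counts of the 5 genes were 24499 in NT2 replicate 3, up to 73107 in the other controls and 13746 to 31683 in the knockdown samples. Of 11 vascular genes 8 were in the table, all 8 with lower fitted values and 5 called, beside the same 21.3%, with sums of 7365 to 11822 in the controls and 4738 to 8275 in the knockdown samples, and NT2 replicate 3 was the lowest control. The oligodendrocyte gene Ugt8a, 1 of 12 listed, was also lower (log2 fold change -0.50, standard error 0.20, called).

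With the astrocyte marker level as a covariate, the log2 fold changes were -0.28 for P2ry12, 0.81 for Cd72, 1.31 for Ms4a4c, 0.15 for Ms4a6c and 0.51 for Ms4a7, and 0 of the 5 genes were called, in a fit that called 7.47% of all listed genes. The 5 astrocyte genes behind the covariate had been selected for the same contrast and were all lower in the knockdown samples. The covariate therefore partly stands for the group, and smaller fold changes and fewer calls can follow from that alone. The part of the cell makeup in these differences was not tested.

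The genes most like P2ry12 and Ms4a6c within the groups were looked up among 1455 listed genes with a mean normalized count of at least 50, by Pearson's r over the 11 samples. For P2ry12 they were Abca9 (r = 0.94), Ccng2 (0.90), Gm5834 (0.86), Med31 (0.85) and Elmo1 (0.81), which without NT2 replicate 3 had 0.93, 0.86, 0.82, 0.81 and 0.87. For Ms4a6c they were Fbxl15, D17Wsu104e and Tor1aip2 (0.97 each), and Utp3 and A430084P05Rik (0.96 each), which without NT2 replicate 3 had 0.84, 0.80, 0.85, 0.76 and 0.91. When that sample was left out, the r values of the genes named for P2ry12 moved less than most of those for Ms4a6c. The nearest genes were not looked up again without it.

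The identity of the counted reads was less certain for some of the genes. The library kit does not mark the strand, and 1423 of the 3422 exon bases of Cd72 (41.6%, GENCODE M21) overlap Tesk1, a protein kinase gene on the opposite strand, so that reads there cannot be assigned to either gene by position. Cd72 had 0 of 11 counts that were whole numbers, within 0.001, and P2ry12 had 7 of 11. Tesk1, looked up for this overlap after the values were seen, had normalized counts of 2147, 1289, 1223, 1291, 1214 and 1356 in NT2 replicates 3, 5, 7, 9, 21 and 23, and 1964, 1913, 1892, 1707 and 1844 in knockdown replicates 4, 6, 8, 10 and 22. It had the same outlying control as Cd72, a log2 fold change of 0.39 (standard error 0.14), and an r with Cd72 of 0.93 within the groups, 0.65 without NT2 replicate 3. Cd72 counts exceeded those of Tesk1 in 5 of 5 knockdown samples and in 1 of 6 controls, NT2 replicate 3.

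Ms4a6c shares 1088 of its 2050 exon bases (53.1%) with BE692007 on the opposite strand, a gene that was not in the table. In addition 5.85% of the windows of 50 bases in its transcripts occur in Ms4a6b, and 7.73% of those of Ms4a4c in Ms4a4b, so that reads may be split between these paralogs. P2ry12 shared 0 of its 2588 windows with another gene, and Ms4a7 shared 0.306%. How much of the counts of Cd72 and Ms4a6c comes from the overlapping genes was not tested.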

How the data were processed

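Sorted striatal cells of 6 control and 5 knockdown samples, grouped by their labels, were analysed. Per the labels, cDNA was amplified with a low-input kit (which does not mark strand), sequenced as single reads of 50 bases, and processed on build mm9. The authors used Strand NGS and deposited estimated counts, 52.9% of them whole within 0.001, of 1767 genes selected by their own test. The aligner settings are not given in the sources used here. The authors also deposited log2 values centred per gene, from which their scaling factors were recovered (1247 genes with over 50 counts throughout). The table's fold changes and p-values are the authors' own comparison and were not used.

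Estimated counts were rounded and fitted with edgeR 4.0.16 (R 4.3.3; TMM, glmQLFit, glmQLFTest, no covariate). A gene was called at a Benjamini-Hochberg adjusted p under 0.05 over the 1767 genes. TMM, the dispersion trend and these p-values rest on genes chosen for the same contrast. In simulated counts of 1767 genes with 200 changed 2-fold, edgeR recovered 178 and called 8 unchanged genes. The simulation used a single dispersion for all genes, as many genes raised as lowered, and no outlying sample. These rates therefore need not hold for the real counts. A count of 0.5 was added before log2. Correlations were tested by exact permutation within groups (SciPy 1.17.1). No pair of samples agreed within sampling noise (chi-square per degree of freedom 21.4 to 170.6). Alternatives were DESeq2 1.42.0, its size factors, the authors' scaling, a highest count of at least 200, the series of sample numbers or the astrocyte marker level as covariate, a pseudocount of 5 and leaving out each sample. The authors' scaling without NT2 replicate 3, and the alternatives for the interferon score and the ratios, were chosen after seeing the data. The 5 genes and the lists were chosen with earlier results of these data known. Named genes are these 5, Nfyc, up to 4 genes per list by highest mean count, and the 5 nearest of P2ry12 and of Ms4a6c, and Tesk1, BE692007, Ms4a4b and Ms4a6b from the overlap search. Promoters came from a RefSeq table (all 5 genes matched) and exons from GENCODE M21 on GRCm38. No coordinates were converted.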

Additional observations from a re-analysis of the deposited data

Results flagged for a closer look

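In groups of 5 and 6 samples, the gap between the most extreme sample and its neighbour was compared with the range of the group by Dixon's criterion, for 18 groups of values. Of these, 6 were marked, and each was NT2 replicate 3. Chance marks about 1 in 20 groups, and the 6 values are not independent, since they come from 1 sample and share the P2ry12 counts. The sample had normalized counts of 4850 for Cd72, 2748 for Ms4a6c and 1718 for Ms4a7, and the counts of these genes were 35.9%, 20.3% and 12.7% of its P2ry12 counts. Its Ms4a4c count of 1247, the highest of the controls, was not marked.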

How the results depend on the processing

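Of 260 log2 fold changes, ratios and correlations recomputed under alternatives, 251 were counted as kept. A fold change or ratio was kept if its sign held and it moved by less than the spread between samples. That spread includes NT2 replicate 3, and a gain or loss of a call was not counted. A correlation was kept if its sign and its side of the adjusted p threshold held, whatever its size. Without NT2 replicate 3, Cd72 thus counted as kept at 2.20 against 1.45, and Ms4a7 with P2ry12 at r = -0.00 against -0.41. Of 36 recomputed counts of called genes, 31 were within 1.5 times the count as reported. The number of listed genes called, 1066, was 1138 with DESeq2, 643 with a highest count of at least 200 (1328 genes tested), 132 with the astrocyte marker level as covariate, and 721 to 1121 when 1 sample was left out. The number of the 5 genes called, 3, was 0 with the astrocyte covariate and 5 with the authors' scaling without NT2 replicate 3. With DESeq2 on all samples it was 4, Ms4a6c in addition, where 1138 of the listed genes were called. It was 2 to 5 when 1 sample was left out: 2 without NT2 replicate 21, when Cd72 was lost, and 5 without NT2 replicate 3. The log2 fold change of Ms4a6c was 0.15 with the astrocyte covariate, which partly stands for the group. The cause was not tested. Leaving out 1 sample gave log2 fold changes of -0.43 to -0.24 for P2ry12, 1.32 to 2.20 for Cd72, 1.65 to 2.20 for Ms4a4c, 0.70 to 1.40 for Ms4a6c and 0.99 to 1.57 for Ms4a7. It gave differences in the log2 ratio to P2ry12 of 1.83 to 2.53, 2.06 to 2.72, 1.15 to 1.80 and 1.34 to 1.98 for Cd72, Ms4a4c, Ms4a6c and Ms4a7. The r of P2ry12 ranged from -0.52 to 0.25 with Cd72, -0.30 to 0.20 with Ms4a4c, -0.59 to 0.35 with Ms4a6c and -0.68 to -0.00 with Ms4a7. It turned positive without NT2 replicate 3 (0.25, 0.20 and 0.35 for the first 3) and for Ms4a4c also without NT2 replicate 5 (0.11). With the interferon score r ranged from -0.37 to 0.23 for P2ry12, positive without NT2 replicate 3 (0.23) or 5 (0.09), 0.66 to 0.86 for Cd72, 0.96 to 0.98 for Ms4a4c, 0.73 to 0.88 for Ms4a6c and 0.17 to 0.84 for Ms4a7, with Ms4a6c at 0.77 without NT2 replicate 5 and Ms4a7 at 0.84 without NT2 replicate 7. No paired analysis was run, since the groups share no sample number and the labels do not say whether samples were paired. The depth of the libraries is not known from the table.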
